A study of Mus musculus with 12 samples.

Results

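Lcn2, Hp, Saa1, Saa2, Saa3, Camp, Ptx3, Orm1 and Cp encode secreted acute phase and antimicrobial proteins. They were followed across 12 RNA-seq libraries of HL-1, an established mouse line that goes back to a tumour of atrial heart muscle. The genes were chosen by symbol, with their levels in these libraries already known, and they make up 9 of the 23184 symbols in the deposited table. All 9 had a mean of at least 1 TPM (transcripts per 1000000 transcripts) and were among the 11774 genes tested. Passing that filter is no support for a difference, since a gene high in 1 group can pass through that group alone.

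The study asked which genes follow the expression of Wdr62, a gene for a scaffold protein of centrosomes and of the JNK kinase pathway. It has 3 groups of 4 libraries, all grown with fetal bovine serum. Control cells (CON, genotype WT) carried virus of the empty vectors pCDH and lentiCRISPRv2. Knockdown cells (KD, genotype WDR62-) received virus with a guide against Wdr62 for Crispr/Cas9. Cells labelled RE (genotype WDR62+) were KD cells given a further virus, pCDH-WDR62-WT-flag. No pCDH vector is named in the labels of KD, unlike those of CON and RE, so a response to that vector and a response to Wdr62 cannot be told apart in comparisons with KD. The treatment labels of the 4 KD libraries run from Cas9 to Cas12, and those of the RE libraries from WDR62 to WDR65. They were read as 1 treatment per group, as the protocol describes. The labels do not say whether KD is 1 clone or a mixed population, nor whether replicates came from separate cultures. The p-values thus rest on a spread among libraries that may be technical only. The control libraries are numbered here by their columns, WT1 to WT4.

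Wdr62 was measured first, as a check of the labels. It had 7.45, 6.61, 6.5 and 3.38 TPM in CON 1 to 4, and 1.40, 0.944, 1.37 and 0.881 TPM in KD 1 to 4. The libraries labelled RE had 1.47, 0.772, 0.826 and 1.99 TPM, which overlapped KD and lay below every CON library. The measured transcript thus showed no return towards CON, and every direction given below for RE is that of the libraries labelled RE. Whether transcripts of the introduced WDR62 would be counted under this symbol was not given in the sources used here. These values therefore cannot check the RE label.

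The libraries also differed in ways their groups do not explain. Among genes whose longest transcript has at least 5032 bases, the median deviation from a gene's mean over all libraries, in log2(TPM + 1), was -0.83 in CON 4, -0.73 in RE 1 and -1.0 in RE 3. The other 9 libraries lay between -0.21 and 0.72 on that measure. The 9 genes are mostly short, with longest transcripts of 609 to 2200 bases in 8 of them and 4564 bases in Cp. The main values are given below also without CON 4 or RE 3. Of 16 cardiac muscle markers, Actc1, Myl7 and Sln were listed at 0 in every library, and 8 of the 16 stayed under 1 TPM throughout, Myh6 among them. The summed level of the cardiac list, 464 to 990 TPM, was carried by Gja1, the main gap junction gene, which reached 410 to 949 TPM, while the troponin gene Tnnt2 had 12.9 to 26.7 TPM. The cardiac transcription factor gene Gata4 had means of 8.69, 7.22 and 5.65 TPM in CON, KD and RE, and the atrial myosin light chain gene Myl4 had 2.23, 4.75 and 5.53 TPM. Nkx2-5, another cardiac transcription factor gene, was the only 1 of the 6 tested markers that changed. It rose from 5.31 ± 2.18 TPM in CON to 12.1 ± 2.24 TPM in KD (adjusted p = 0.0229) and 18.4 ± 6.09 TPM in RE (adjusted p = 0.00309), the direction of most of the 9 genes, and its part in their values was not tested. Its KD call missed the threshold under median-of-ratios scaling and in 5 fits, each lacking 1 library (CON 1, CON 2, CON 3, KD 1 or KD 4). The labelled cardiac muscle type therefore rests on few of its defining markers here, though a listed 0 can be a failed estimate.

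The acute phase response is the rapid change in secreted proteins that follows infection or injury, led by the liver and also mounted by stromal and heart cells. Interleukin-6 and interleukin-1 drive it through STAT3, NF-kB and the C/EBP transcription factors. Serum amyloid A proteins bind lipids, haptoglobin (Hp) captures free haemoglobin, orosomucoid (Orm1) carries small molecules, and ceruloplasmin (Cp) carries copper and oxidises iron. Lipocalin-2 (Lcn2) withholds iron from bacteria by binding their siderophores, cathelicidin (Camp) is a peptide that damages microbial membranes, and pentraxin 3 (Ptx3) marks microbes for complement.

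The 9 genes are protein-coding and lie on several chromosomes of GRCm38 (GENCODE M21). Saa3 (chr7:46711998-46715700), Saa1 (chr7:46740497-46742980) and Saa2 (chr7:46751790-46754313) neighbour each other, the first and second on the minus strand and Saa2 on the plus strand. Lcn2 lies at chr2:32384633-32388252, Hp at chr8:109575128-109579172 and Camp at chr9:109847379-109849617, all on the minus strand. Cp (chr3:19957054-20009145), Ptx3 (chr3:66219910-66225805) and Orm1 (chr4:63344560-63348163) are on the plus strand. Ptx3 lies within Veph1, a gene of the opposite strand at 0.181 TPM.

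The DNA before the genes' RefSeq starts is shown because C/EBP, NF-kB and STAT factors are the known regulators of this response. RefSeq's promoter table (GRCm38.p6) matched 7 of the 9 genes by symbol, and not Hp or Orm1. The C/EBP motif TTGCNNAA, searched on both strands (its other strand reads TTNNGCAA), occurred in the 250 bases before a start of 6 of the 7. These were Lcn2, Saa1, Saa2, Saa3, Ptx3 and Cp, the last at the second of its 2 RefSeq starts only. The Cp match lies within an annotated exon, and Cp had 2 windows in which to match. The same window held this motif in 9.56% of all 32851 promoters of the table. An NF-kB motif (7.25% of all promoters) and the STAT motif TTCNNNGAA (7.02%) matched in none of the 7. These matches are letters in a window and not measured binding sites. With the 50 bases after the start included, an NF-kB match appeared in Camp and 2 in Ptx3. Camp had no C/EBP match, and 161 of the 250 bases of its window lie in an annotated exon. For Lcn2 the RefSeq start lies inside the GENCODE gene (chr2:32384633-32388252, minus strand). Its stretch thus follows the GENCODE start, between annotated exons, and need not be promoter DNA. The stretches below are in lower case with the C/EBP match in capitals, 5′ to 3′ on the gene's own strand, and stop before any annotated exon.
Lcn2, chr2:32387798-32387989, minus strand: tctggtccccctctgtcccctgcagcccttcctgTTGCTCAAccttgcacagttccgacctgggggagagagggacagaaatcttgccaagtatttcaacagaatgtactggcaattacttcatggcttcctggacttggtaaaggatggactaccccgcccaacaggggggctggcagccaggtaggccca
Saa1, chr7:46742981-46743230, minus strand: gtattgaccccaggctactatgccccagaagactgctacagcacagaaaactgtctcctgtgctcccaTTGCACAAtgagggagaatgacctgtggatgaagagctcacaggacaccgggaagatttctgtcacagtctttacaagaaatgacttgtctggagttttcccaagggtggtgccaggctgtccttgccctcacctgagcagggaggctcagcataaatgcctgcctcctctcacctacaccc
Saa2, chr7:46751583-46751789, plus strand: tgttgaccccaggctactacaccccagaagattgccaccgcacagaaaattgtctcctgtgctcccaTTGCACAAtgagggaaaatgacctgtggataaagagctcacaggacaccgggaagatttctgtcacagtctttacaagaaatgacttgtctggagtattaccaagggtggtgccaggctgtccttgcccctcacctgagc
Saa3, chr7:46715701-46715926, minus strand: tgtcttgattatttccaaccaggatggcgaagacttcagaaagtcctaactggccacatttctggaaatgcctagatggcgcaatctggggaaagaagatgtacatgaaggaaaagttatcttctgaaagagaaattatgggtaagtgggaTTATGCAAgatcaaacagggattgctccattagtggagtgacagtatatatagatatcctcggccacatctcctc
Ptx3, chr3:66219637-66219886, plus strand: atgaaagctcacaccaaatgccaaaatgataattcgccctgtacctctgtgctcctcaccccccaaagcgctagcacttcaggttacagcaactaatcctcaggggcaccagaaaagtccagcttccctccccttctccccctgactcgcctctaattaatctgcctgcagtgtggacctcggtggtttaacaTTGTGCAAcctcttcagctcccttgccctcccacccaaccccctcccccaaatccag
The match began 216 bases before the RefSeq start in Lcn2, 182 in Saa1, 183 in Saa2, 99 in Saa3 and 57 in Ptx3. Saa1 and Saa2 carried the same 8 letters, and their 250-base windows were identical at 238 aligned bases (95.2%), against 59.6% for Saa1 and Saa3.

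In KD, 7 of the 9 genes lay above CON without overlap, whereas Ptx3 and Cp overlapped it. Across all genes tested, 11.9% were higher in every KD library than in every CON library. The genes were chosen with this comparison known, so the KD values against CON are a description with no test. Their median log2 fold change was 2.88 against -0.01 over all genes tested, on the log2(TPM + 1) scale, which understates the change of low genes. As a sum, the 9 genes held 0.174% to 0.632% of all TPM in the CON libraries, 1.65% to 1.96% in KD and 0.808% to 4.21% in RE. In such bulk samples, fewer cells of a type and less RNA per cell cannot be told apart.

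**Figure D1:**
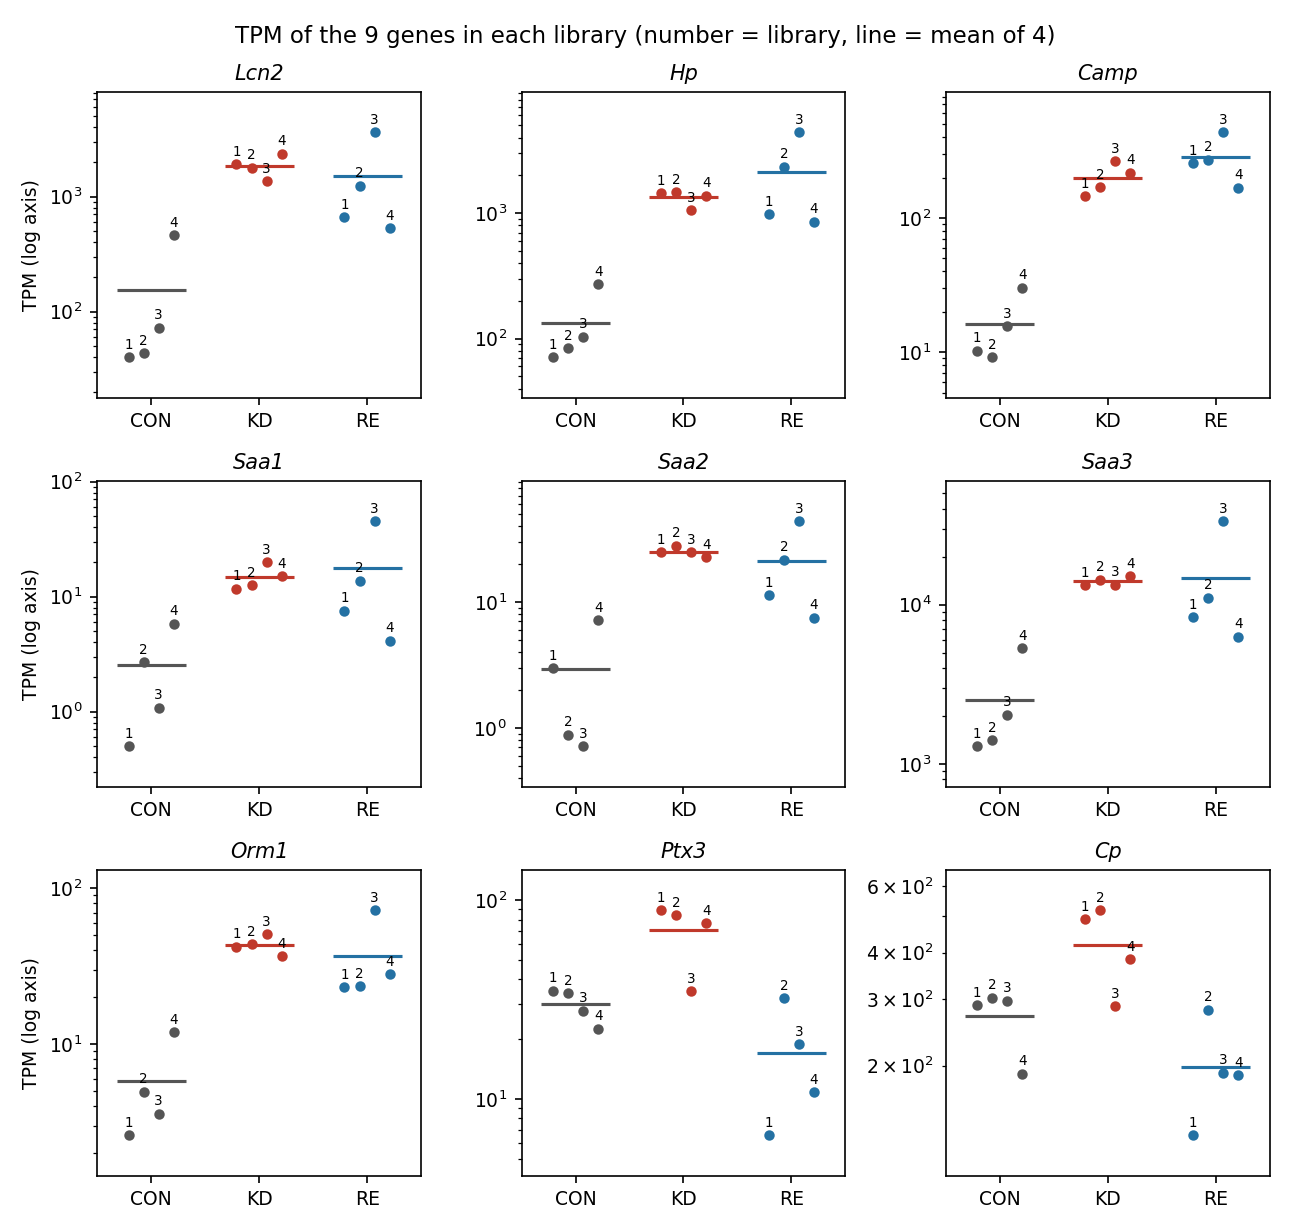
TPM (log axis) of the 9 genes in each of the 12 libraries. Points are libraries with their numbers and lines are means of 4. In 7 panels KD lies above CON without overlap, with CON 4 highest in CON and RE 3 highest in RE, while Ptx3 and Cp have their lowest means in the libraries labelled RE.

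Saa3, the serum amyloid gene that is expressed outside the liver in mice, was the most abundant of the 9. It measured 1292, 1410, 2035 and 5311 TPM in CON 1 to 4. KD 1 to 4 had 13195, 14334, 13360 and 15146 TPM, and RE 1 to 4 had 8326, 11072, 33275 and 6290 TPM. The KD mean was 5.58-fold the CON mean, or 8.87-fold without CON 4, while the libraries labelled RE spanned values from below to far above KD. Saa3 ranked between 12 and 68 among all genes in the CON libraries, 2 or 3 in KD and 1 to 7 in RE. In RE 3 it was the top gene of the table and held 3.33% of all TPM.

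Saa1 and Saa2, the serum amyloids that dominate the liver's response, were far lower. Saa1 measured 0.50, 2.68, 1.08 and 5.83 TPM in CON, 11.7, 12.5, 20.0 and 15 TPM in KD, and 7.55, 13.8, 45.1 and 4.13 TPM in RE. All 4 KD libraries lay above CON, and RE 4 fell below CON 4. For Saa2 the CON libraries had 2.97, 0.884, 0.716 and 7.16 TPM, the KD libraries 24.7, 28.0, 24.9 and 22.7 TPM, and RE 11.3, 21.7, 43.6 and 7.53 TPM. RE 4 exceeded CON 4 by little. The log2 fold change of KD over CON was 2.38 ± 0.61 (SE) for Saa1, 3.02 ± 0.54 for Saa2 and 2.73 ± 0.50 for Saa3. Of the 50-base stretches of Saa1 transcripts, 13.2% also occur in Saa2, so reads could have been split between them and their separate values are uncertain.

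Lcn2 showed the largest log2 fold change of the 9 in KD against CON. It measured 40.2, 43.8, 72.5 and 464 TPM in CON, 1900, 1776, 1365 and 2354 TPM in KD, and 659, 1240, 3600 and 532 TPM in RE. CON 4 stood 8.89-fold above the mean of the other 3 controls, and the lowest KD library was 2.94-fold above CON 4. The log2 fold change of KD over CON was 4.35 ± 0.73, and 5.14 without CON 4. Means were 155 ± 206 TPM in CON, 1849 ± 407 TPM in KD and 1508 ± 1429 TPM in RE (SD, n = 4).

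Hp, Orm1 and Cp are plasma carriers. Hp measured 71.1, 83.7, 104 and 273 TPM in CON, 1436, 1465, 1051 and 1373 TPM in KD, and 982, 2348, 4388 and 852 TPM in RE. Its KD mean was 10.0-fold the CON mean, or 15.4-fold without CON 4, a log2 fold change of 3.52 ± 0.51, and no library of KD or RE reached down to CON. Orm1 had 2.61, 4.96, 3.59 and 12 TPM in CON, 42.3, 43.8, 50.6 and 36.6 TPM in KD, and 23.2, 23.6, 72.2 and 28.2 TPM in RE. Its log2 fold change in KD was 2.88 ± 0.41, with both other groups apart from CON. Orm1 shares 20.4% of its 50-base stretches with its paralog Orm2, which had at most 5.29 TPM in any library.

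Cp, the longest of these transcripts, had the smallest log2 fold change of the 9 in both KD and RE against CON. It had 290, 303, 298 and 190 TPM in CON, 491, 518, 288 and 383 TPM in KD, and 130, 282, 191 and 188 TPM in RE. KD 3 lay within the CON range, so the groups overlapped, and the log2 fold change of KD over CON was 0.62 ± 0.25. Cp overlaps Hps3 on the opposite strand, a gene at 11.2 TPM, and whether counting used strand was not given in the sources used here.

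The antimicrobial peptide gene Camp had the largest change in KD relative to its standard error. Its CON libraries had 10.3, 9.17, 15.6 and 30.2 TPM, KD 146, 170, 264 and 218 TPM, and RE 255, 272, 433 and 168 TPM. Every KD and RE library was at least 4.83-fold above the highest CON library, and the log2 fold change of KD was 3.65 ± 0.36.

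Ptx3 had another pattern. It measured 35.2, 34.3, 27.9 and 22.6 TPM in CON, 88.9, 84.3, 35.0 and 76.9 TPM in KD, and 6.59, 32.2, 18.8 and 10.8 TPM in RE. KD 3 fell just inside the CON range, and all RE values were below every KD value. The log2 fold change of KD over CON was 1.16 ± 0.42.

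The libraries labelled RE, set against CON, show whether the 9 genes also stood above control after the further virus. Over all genes, 318 (2.70%) were higher and 427 (3.63%) lower in these libraries in limma's moderated test with Benjamini-Hochberg adjustment over all 11774 genes at 0.05. Of the 9 genes, 6 were higher: Camp, Hp, Lcn2, Orm1, Saa2 and Saa3. The CON libraries are shared with the comparison that the choice of genes used, so these p-values do not stand apart from it. The same 6 genes did not overlap CON, as did 4.46% of all genes in that direction.

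Camp rose by a log2 fold change of 4.10 (95% interval 3.31 to 4.89, adjusted p = 2.04e-05) and Hp by 3.90 (2.80 to 5.00, adjusted p = 0.000455). For Lcn2 the value was 3.65 (2.06 to 5.24, adjusted p = 0.00986). Orm1 rose by 2.49 (adjusted p = 0.00283), Saa2 by 2.5 (adjusted p = 0.0153) and Saa3 by 2.48 (adjusted p = 0.0106). Each of these 6 gave the smallest two-sided exact permutation p that 4 against 4 libraries allow, 0.0286. Saa1 had a log2 fold change of 2.14 (adjusted p = 0.0605, exact permutation p = 0.0571) and overlapped CON through RE 4. Ptx3 and Cp had -0.97 (adjusted p = 0.162) and -0.48 (adjusted p = 0.215), with overlapping groups.

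These differences sit on a shift of all genes. The median log2 fold change of all genes tested was -0.27 for RE against CON and -0.29 for RE against KD, and it was close to 0 under median-of-ratios scaling. Left-out libraries moved these values: without CON 4 they were 4.45 for Lcn2, 4.32 for Hp, 4.43 for Camp, 2.86 for Orm1, 2.95 for Saa2, 2.93 for Saa3 and 2.54 for Saa1. Without RE 3 they were 3.09 for Lcn2, 3.45 for Hp, 3.87 for Camp, 2.11 for Orm1, 2.06 for Saa2, 1.98 for Saa3 and 1.54 for Saa1. Relative to the shift of all genes, with every library kept, the values against CON were 4.37 for Camp, 4.17 for Hp, 3.93 for Lcn2, 2.77 for Saa2, 2.76 for Saa3 and Orm1, and 2.42 for Saa1. Median-of-ratios scaling kept the same 6 calls. In the fit of CON and RE alone, Lcn2 (adjusted p = 0.0511), Saa2 (0.0729) and Saa3 (0.0565) missed the threshold, and Saa2 also missed it without CON 2 (0.0589) or CON 3 (0.0593). Saa1 passed without CON 4 (adjusted p = 0.00542) or without RE 4 (0.0265). Cp was lower in RE than in CON without CON 4 (-0.64, adjusted p = 0.0452), where 42.0% of all genes were lower.

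**Figure D2:**
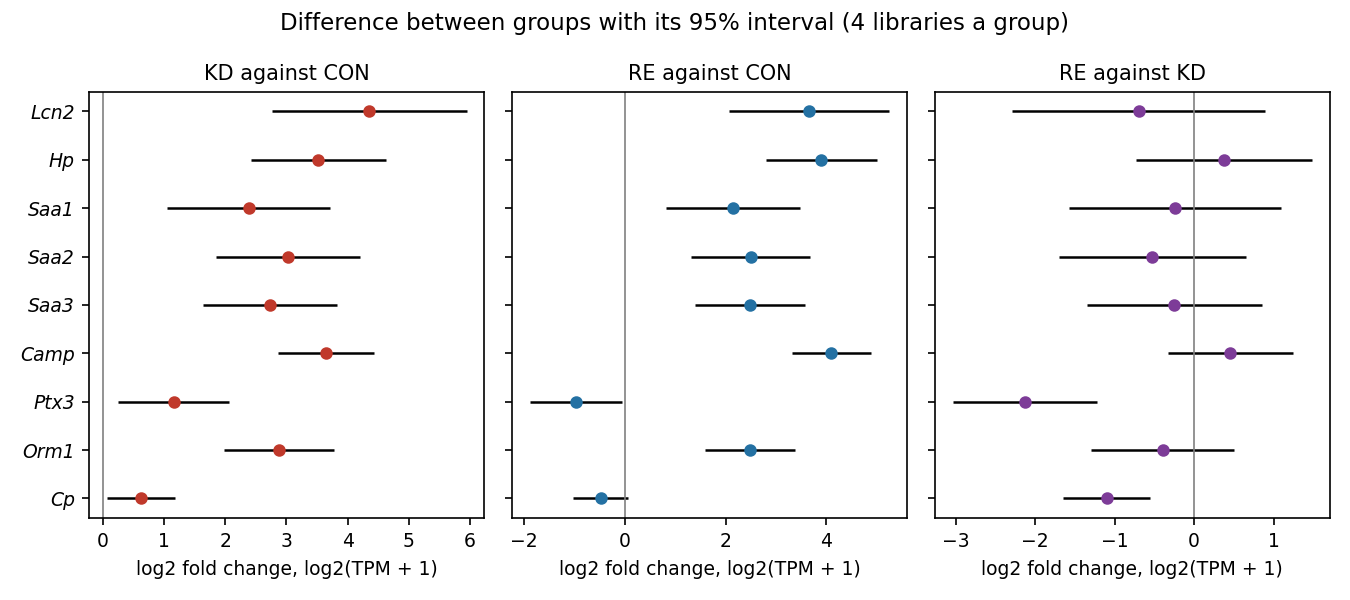
Log2 fold change of log2(TPM + 1) for each gene in 3 comparisons (x axes), with 95% intervals from the fit over all genes, 4 libraries a group. The first panel is a description with no test. Intervals for RE against KD include 0 for 7 genes and lie below 0 for Ptx3 and Cp.

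Against KD, the libraries labelled RE were lower in 1 of the 9 genes, Ptx3, and higher in none by limma, with 2 lower (Ptx3 and Cp) and 0 higher at an unadjusted p under 0.05. At the adjusted threshold, 0.858% of all genes were lower and 0.187% higher in the same comparison. No share of all genes was counted at an unadjusted p, here or below. Of the 15 other acute phase genes tested, described below, 7 were lower and 1 higher at an unadjusted p under 0.05. The KD libraries are shared with the comparison used in choosing the genes. Ptx3 fell by 2.13 on the log2 scale (95% interval -3.04 to -1.22, adjusted p = 0.0376, exact permutation p = 0.0286), and its value was -1.83 relative to the shift of all genes. Of the 12 fits that each left out 1 library, the call held in 3 (without CON 4, KD 3 or RE 2) and was lost in 9, with an adjusted p up to 0.166 without KD 1. It was also lost under median-of-ratios scaling (-1.81, adjusted p = 0.0591).

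Cp had a log2 fold change of -1.10 (95% interval -1.65 to -0.55, adjusted p = 0.0636, exact permutation p = 0.0286). Ptx3 and Cp were the 2 genes whose RE values all lay below KD, as 10.8% of all genes did. Cp passed the threshold without CON 4 (adjusted p = 0.0254), without KD 3 (0.0299) or without RE 2 (0.032). With a trend on transcript length subtracted from each library, Cp stood at -0.56 (adjusted p = 0.107) and Ptx3 at -2.06 (adjusted p = 0.0351).

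The other 7 genes overlapped KD and none passed the test. Lcn2 stood at -0.70 (95% interval -2.29 to 0.90, adjusted p = 0.495), Hp at 0.38 (-0.73 to 1.48, adjusted p = 0.6) and Camp at 0.45 (-0.33 to 1.24, adjusted p = 0.37). Saa2 was at -0.53 (-1.70 to 0.65), Orm1 at -0.39 (-1.29 to 0.50), Saa3 at -0.25 (-1.34 to 0.85) and Saa1 at -0.24 (-1.57 to 1.09). Relative to the shift of all genes, Saa1 was at 0.052 and Saa3 at 0.045, so neither has a direction that holds across scalings. The intervals span more than a doubling on each side for Saa1 and do not show that these genes were alike in KD and RE. The median over the 9 genes was -0.39 beside -0.29 for all genes.

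These counts depended on which libraries were kept. With RE 3 left out alone none of the 9 passed, and with CON 4 left out alone 2 did, Ptx3 and Cp, in a fit where 19.9% of all genes were lower. Without CON 4 and RE 3, a pair left out after their values were seen, 5 of the 9 genes were lower in RE than in KD: Ptx3, Cp, Lcn2, Saa3 and Orm1. Of all genes 5.13% were lower in that fit. Lcn2 then stood at -1.26 (adjusted p = 0.037), Saa3 at -0.75 (0.0474) and Orm1 at -0.77 (0.0385). With RE 1 also left out none passed the threshold, and Lcn2 stood at -1.16.

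In CON and RE, though not in KD, most of the genes were high in the same library. In the libraries labelled RE the order from high to low was RE 3, RE 2, RE 1, RE 4 for Lcn2, Hp, Saa1, Saa2, Saa3 and Camp, and RE 3 was also highest for Orm1. RE 3 exceeded the mean of the other 3 RE libraries 1.87-fold for Camp and 5.32-fold for Saa1. Among controls, CON 4 was highest for those 7 genes, from 2.58-fold the mean of the others for Camp to 8.89-fold for Lcn2, and it was lowest for Ptx3 and Cp. KD showed no such shared library: KD 3 was lowest for Lcn2, Hp, Ptx3 and Cp and highest for Camp, Saa1 and Orm1. The coefficient of variation in KD ran from 6.49% for Saa3 to 34.6% for Ptx3, and for each of the 7 genes it was below that in CON and RE. It was 26.3% for Camp in KD against 39.3% in RE. Ptx3 and Cp varied more in KD (34.6% and 25.1%) than in CON (19.7% and 19.8%).

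**Figure D3:**
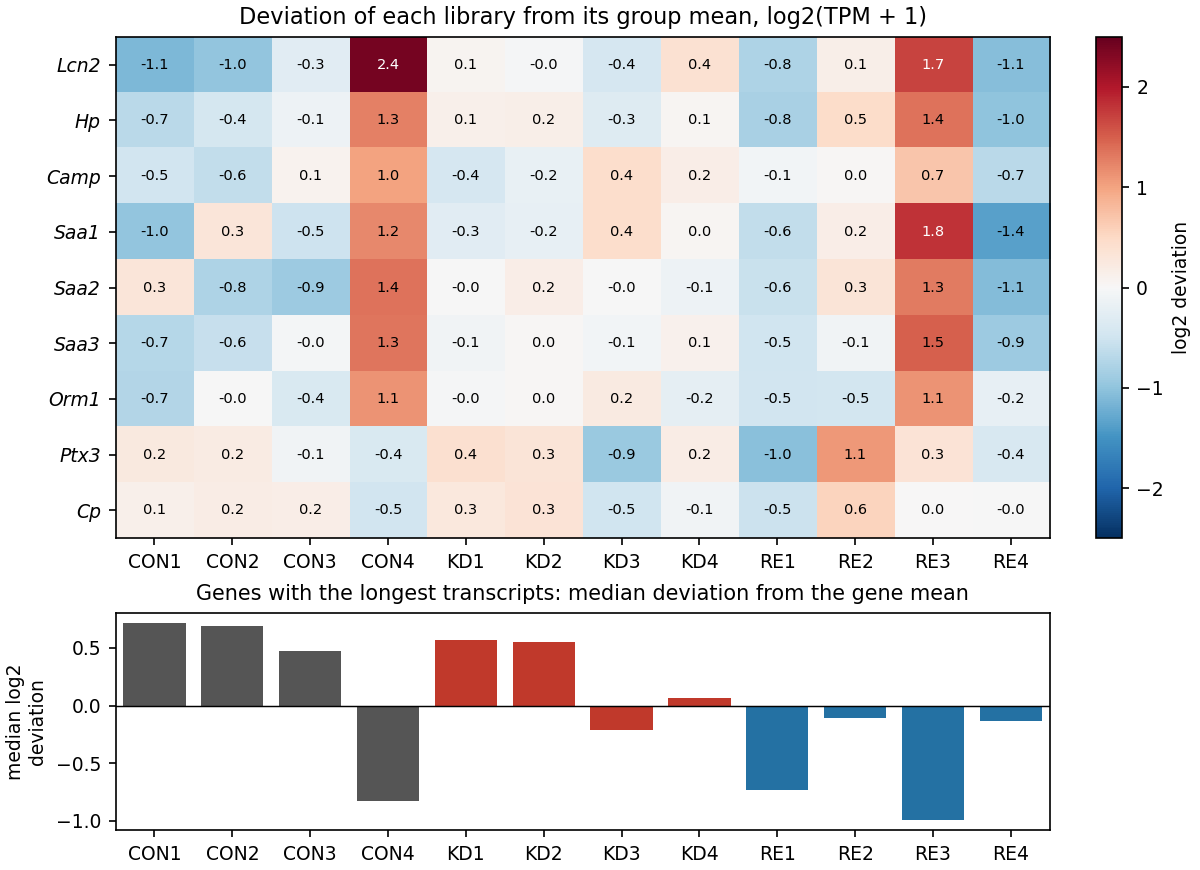
Top, log2(TPM + 1) of each gene (rows) minus its group mean in each library (columns). Bottom, median log2 deviation from a gene's mean over all libraries, for genes with long transcripts. CON 4 and RE 3 are high for 7 genes in the top panel and lowest in the bottom one, where RE 1 is also low (-0.73) without high values on top.

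CON 4 and RE 3, the libraries in which the 7 genes were high, also had the lowest medians of long transcripts (-0.83 and -1.0), and CON 4 had the lowest Wdr62 of the controls. RE 1, with a median of -0.73, was not high for these genes. With the trend on transcript length subtracted, a choice made after seeing the data, the KD values against CON were 4.38 for Lcn2, 3.53 for Hp, 3.69 for Camp and 2.71 for Saa3. Without CON 4 they were 5.14, 3.94, 3.98 and 3.18, with 2.78 for Saa1, 3.47 for Saa2, 3.25 for Orm1, 1.03 for Ptx3 and 0.46 for Cp. The part of RNA quality or library preparation in the spread within CON and RE was not tested.

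Over the 12 libraries, the 7 genes other than Ptx3 and Cp had pairwise Pearson correlations of 0.87 to 0.99, and Ptx3 and Cp correlated with each other at 0.96. Points in these correlations share libraries and the differences between groups, and they are given as descriptions. Among 9630 genes with a mean of at least 5 TPM, those most like Lcn2 were Tmem176b (r = 0.994), Gstm5 (0.991) and Saa3 (0.990). Hp was most like Fabp4 (0.991), a fatty acid binding protein gene, and Saa2 like Wfdc21 (0.976). Camp was nearest to H2-T10 (0.980), Orm1 to Ch25h (0.973), the cholesterol 25-hydroxylase gene, and Saa1 to Dhrs3 (0.969). Ptx3 was most like Lynx1 (0.974), and Cp like Ptk2b (0.988), a kinase gene.

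Other acute phase genes moved in both directions in KD. This list and those that follow were chosen with earlier results of these data known. Their counts and p-values do not stand apart from that choice. Of 29 listed, 15 were tested, 9 rose and 2 fell against CON, in a comparison where 6.60% of all genes rose and 3.61% fell, and their median log2 fold change was 1.32. The count of risen genes was 3 without KD 1, KD 2 or KD 4 and 10 without CON 4, where 9.48% of all genes rose. Serpina3n, a protease inhibitor, rose from 7.19 ± 3.51 to 30.6 ± 4.65 TPM (log2 fold change 2.04, adjusted p = 0.00289). C3, the central complement component, rose from 141 ± 34.5 to 567 ± 176 TPM (1.98, adjusted p = 0.00147), and the metalloreductase gene Steap4 from 20.2 ± 9.40 to 75.3 ± 23.3 TPM (1.96, adjusted p = 0.0195). Steap4 lost the call without KD 1, KD 2 or KD 4. Vnn1, a pantetheinase gene, had 4.34 to 8.04 TPM in CON and was listed at 0 in all 8 KD and RE libraries.

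The same list was measured in the libraries labelled RE. Against KD, 2 of the 15 fell and none rose, with a median of -0.84. C3 fell by 1.57 on the log2 scale to 193 ± 69.4 TPM and angiotensinogen (Agt) by 1.98 to 52.1 ± 28.6 TPM, each at an adjusted p of 0.0376. These calls were lost in 9 and 8 of the 12 fits without 1 library, and both were lost under median-of-ratios scaling. Against CON, Il1rn, the interleukin-1 receptor antagonist, rose by 1.45 in RE (adjusted p = 0.00127) and by 1.89 in KD (adjusted p = 0.00014). Lbp, which binds bacterial lipopolysaccharide, fell by 2.90 in RE (adjusted p = 0.000824), from 43.8 ± 13.4 to 5.70 ± 4.07 TPM. In KD it fell by 1.77 (adjusted p = 0.0148). Crp, Apcs, A2m, Fga, Fgg, Hamp and Ctsc were listed at 0 in every library.

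**Figure D4:**
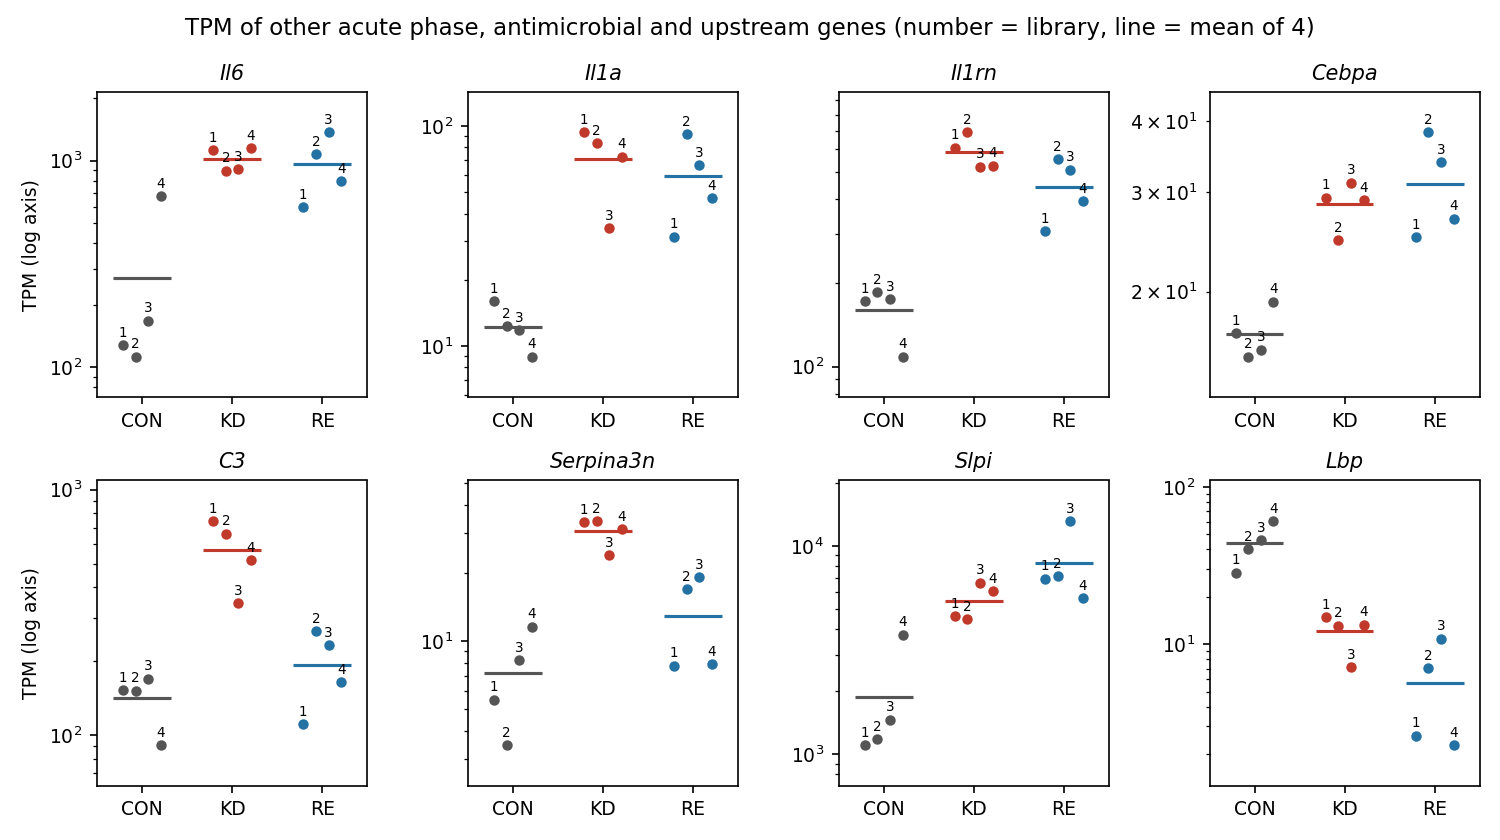
TPM (log axis) of 8 other acute phase, antimicrobial and upstream genes in each library. Points are numbered libraries and lines are means of 4. C3 and Serpina3n are highest in KD, Il1rn, Il1a and Slpi stand above CON in KD and RE, Il6 is high in CON 4, and Lbp has its lowest mean in RE.

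Among other secreted antimicrobial proteins, 6 of 23 were tested and 4 rose in KD, beside 6.60% of all genes, with a median of 1.57. Slpi, a secreted protease inhibitor with antimicrobial activity, measured 1102, 1179, 1463 and 3751 TPM in CON, and rose by 1.71 in KD (adjusted p = 0.0104) and by 2.25 in RE against CON (adjusted p = 0.00251). Like Saa3 it was highest in CON 4 and RE 3, at 13180.4 TPM in the latter. Lyz2, a lysozyme gene, rose from 0.924 ± 0.901 to 7.15 ± 1.59 TPM in KD and 10.4 ± 2.13 TPM in RE. The peptide hormone gene Adm rose by 1.98 in KD from 0.0840 ± 0.119 TPM. Rnase4, a secreted ribonuclease, rose by 1.42 in KD (adjusted p = 0.000568) and fell by 1.29 in RE against KD (adjusted p = 0.0137), the only gene of this list to do so. That last call was lost without KD 1, KD 2, RE 1 or RE 4 and under median-of-ratios scaling, which also ended the KD call of Slpi.

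Of 28 upstream cytokine and receptor genes, 21 were tested and 5 rose in KD, beside 6.60% of all genes, with a median of 0.29. Il6, the main inducer of acute phase genes, had 128, 112, 168 and 674 TPM in CON, 1128, 895, 907 and 1146 TPM in KD, and 596, 1075, 1371 and 796 TPM in RE. CON 4 was the control nearest to KD, as it was for the 7 genes, and RE 1 fell below it. Il6 rose by 2.33 in KD (adjusted p = 0.00703) and by 2.18 in RE against CON (adjusted p = 0.0143). The second call was lost without CON 1, CON 2, CON 3 or RE 3. Il1a, an interleukin-1 gene, rose by 2.38 in KD (adjusted p = 0.00109) and by 2.1 in RE (adjusted p = 0.00342), and was lowest of all in CON 4, at 8.93 TPM. Il11, a cytokine of the Il6 family, rose by 1.79 (adjusted p = 0.00519), Irak3, an inhibitor of the interleukin-1 pathway, by 1.76 (adjusted p = 0.00232), and Lif by 1.43 (adjusted p = 0.00127). None of the 21 changed in RE against KD in limma, where 10 were lower at an unadjusted p under 0.05. The median log2 fold change of all genes was -0.29 in that comparison, and no share of all genes stands beside that count. Once CON 4 was left out, 9 of the 21 fell in RE against KD and 12 fell in RE against CON, in fits where 19.9% and 42.0% of all genes fell. Osm was listed at 0 in every library, and Csf3 and Il1b stayed under 1.2 TPM.

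Of 24 transcription factors and feedback regulators of the response, 22 were tested and 1 rose in KD, where 6.60% of all genes rose. This was Cebpa, a C/EBP factor, at 16.8 ± 1.72 TPM in CON, 28.5 ± 2.76 TPM in KD and 31.0 ± 6.17 TPM in RE, with log2 fold changes of 0.73 (adjusted p = 0.0159) and 0.83 (adjusted p = 0.011) against CON. The KD call was lost under median-of-ratios scaling and without CON 2, CON 3, KD 1 or KD 4. Cebpd stood at 0.80 (adjusted p = 0.17) and Cebpb at 0.18 (adjusted p = 0.77) in KD against CON, with Cebpd at 159 TPM in CON 4 and 45.0 to 61.7 TPM in the other controls. Without CON 4, 3 of the 22 rose in KD, beside 9.48% of all genes, and 4 rose and 8 fell in RE against CON, beside 10.8% and 42.0% of all genes.

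Of 15 receptors and partners of the 9 proteins, 9 were tested, and 2 rose in KD. In KD against CON 6.60% of all genes rose, which also stands beside the counts of the next lists. Cd163, the scavenger receptor for haptoglobin-haemoglobin complexes, rose by 1.40 (adjusted p = 0.00453) to 2.2 ± 0.977 TPM. P2rx7, an ATP-gated channel gene, rose by 0.66 (adjusted p = 0.0165). The Lcn2 receptor genes Slc22a17 and Lrp2 stayed under 1 TPM in every library. Fgf2, a growth factor that Ptx3 binds, fell by 2.17 in RE against CON (adjusted p = 0.0113). Of 20 tested genes of iron and copper handling, Hfe rose by 1.27 (adjusted p = 0.00293) and Hmox1, haem oxygenase, by 0.59 (adjusted p = 0.0253) in KD. Hmox1 lost that call without CON 2, CON 3, KD 1, KD 3 or KD 4, and P2rx7 without CON 3, KD 2 or KD 4. In the lipocalin and pentraxin families 6 of 24 were tested, and Fabp4 (3.23, adjusted p = 0.000568) and Fabp5 (0.67, adjusted p = 0.0235), both fatty acid binding proteins, rose in KD, the second not without CON 2, CON 3, KD 2 or KD 4. In RE against KD none of the 22 transcription factors and feedback regulators, 9 receptors and partners, 20 metal handling genes and 6 lipocalin and pentraxin family genes changed in limma. At an unadjusted p under 0.05, 6, 3, 4 and 0 of them were lower, and 0, 0, 2 and 1 were higher. No share of all genes was counted at that p, and the median of all genes was -0.29 there.

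Markers of cell types that make these proteins in tissue were measured in the same libraries. Of 13 macrophage markers, 11 were under 1 TPM in every library and 4 at 0. Their summed level was 4.45 to 7.56 TPM in CON, 7.45 to 9.51 TPM in KD and 6.46 to 14.8 TPM in RE, nearly all of it Cd68, and Ptprc reached at most 0.0434 TPM. The 11 neutrophil markers, 9 of them under 1 TPM throughout, summed to 0.294 to 8.66 TPM in CON, 3.90 to 18.1 TPM in KD and 4.72 to 9.95 TPM in RE. S100a8 (0 to 16.0 TPM) and Prtn3 made up most of that in each library, and S100a9 and Ngp were listed at 0. Prtn3 had means of 0.250 ± 0.104 TPM in CON, 1.46 ± 0.741 TPM in KD and 2.61 ± 2.55 TPM in RE, and at 6.32 TPM it was highest in RE 3. All Prtn3 values in KD and RE lay above CON, as those of 11.9% and 4.46% of all genes did. With every library kept, neither S100a8 nor Prtn3 passed the test in any of the 3 comparisons. Of these 2 genes, 1 rose in KD without RE 3, where 7.47% of all genes rose. In RE against CON 1 rose without CON 4 or without RE 1, beside 10.8% and 2.28% of all genes. The part of both genes in the values of the 9 genes was not tested. Hepatocyte markers summed to at most 2.01 TPM in any library, with Alb at most 0.0604 TPM. The 9 fibroblast markers, with Lum and Tcf21 at 0, summed to 2752 to 4265 TPM in CON, 2953 to 4252 TPM in KD and 1560 to 2525 TPM in RE, a sum carried by Col3a1 and lower in RE. Single markers also fell in KD: Dcn from 41.8 ± 27.1 to 5.05 ± 0.866 TPM (log2 fold change -2.65, adjusted p = 0.000304) and Col1a1 from 97.1 ± 12.9 to 57.9 ± 10.8 TPM (-0.75, adjusted p = 0.0244), 2 of the 6 tested. Col1a1 missed the threshold in 4 fits, each lacking 1 library (CON 1, CON 2, CON 3 or KD 4), and with the trend on transcript length subtracted. In RE, 4 of the 6 fell against CON and 2 against KD, beside 3.63% and 0.858% of all genes. The share for KD against CON was 3.61%. The calls against KD, Col1a1 and Col1a2, were lost in 8 and 9 of the 12 fits without 1 library. Both were also lost under median-of-ratios scaling, with the compared groups alone and with the length trend subtracted. Against CON, Col1a2 lost its call in 9 of these fits and Col3a1 in 5, while Col1a1 and Dcn lost it in 0. Col1a2 and Col3a1 also lost it under median-of-ratios scaling, with the compared groups alone and with the length trend subtracted. The part of these markers in the values of the 9 genes was not tested. Epithelial markers summed to 1.19 to 4.01 TPM and endothelial markers to 0.340 to 1.26 TPM.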

How the data were processed

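The authors deposited 1 table of TPM values for 23184 symbols in 12 libraries. Per the submitters' processing notes, the genome build was mm10 and the tools were Cufflinks 2.2.1, TopHat2 2.1.1 and Trim Galore 0.6.6. The way from these to TPM was not given in the sources used here. Every column of the deposited TPM table sums to 1000000, so depth is unknown and no counting interval is given. A value of 0 can be a failed estimate. Columns WT1 to WT4 were taken as CON because CON has the genotype WT in the labels, so their numbers pair them with nothing.

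The limma and permutation tests used log2(TPM + 1), whereas Dixon's test for outlying libraries used TPM. Genes with a mean of at least 1 TPM entered 1 model of the 3 groups in limma (version 3.58.1, R 4.3.3). The moderated test was two-sided, with a mean-variance trend, and p-values were adjusted by Benjamini-Hochberg over all 11774 genes at 0.05. "Rose" and "fell" refer to this test. Intervals are 95%. Single genes also had a two-sided exact permutation test of 4 against 4. The fit was tested on simulated data.

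The 9 genes and all gene lists were chosen with earlier results of these data known. From each list, in each comparison, up to 4 changed genes with the largest absolute log2 fold change are named; Lif, Cebpb, Cebpd, Osm, Csf3, Il1b and the genes listed at 0 were named after their values were seen. The genes most like each gene are those with the highest Pearson correlation among genes of at least 5 TPM. Gene models come from GENCODE M21 (GRCm38), which shares coordinates with mm10. Alternatives were another pseudocount, other filters, scalings and models, leaving out libraries, and a loess trend on transcript length (span 0.5).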

Additional observations from a re-analysis of the deposited data

Results flagged for a closer look

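In 27 groups of 4 libraries (9 genes in 3 groups) the highest or lowest library was set against the rest. By Dixon's test on TPM, 4 stood apart, and chance alone marks about 1 group in 20. The test was not run on the log2 scale, where high values stand out less. Lcn2 had 464 TPM in CON 4, where the next control had 72.5 TPM. Hp had 273 TPM in CON 4 against 104 TPM in the next control. Cp had 190 TPM in CON 4, below the nearest control at 290 TPM. Orm1 had 72.2 TPM in RE 3, with the next library labelled RE at 28.2 TPM.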

How the results depend on the processing

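Across 22 alternatives (23 for RE against KD), the KD values against CON kept their direction for all 9 genes, with Lcn2 between 3.98 and 5.14. The number of genes changed over the whole table moved far more. For KD against CON it was 1202, and 1904 under quantile normalization, 4636 without CON 4, RE 1 and RE 3, 2595 with the length trend subtracted, 4082 without CON 4 and RE 3, and 744 to 2412 without 1 library. For RE against CON it was 745, and 452 with a filter of 5 TPM, 1178 under quantile normalization, 409 with the compared groups alone, 3781 without CON 4, RE 1 and RE 3, 1521 with the length trend subtracted, 5569 without CON 4 and RE 3, and 417 to 6219 without 1 library (highest without CON 4). For RE against KD it was 123, and 78 under median-of-ratios scaling, 49 with the compared groups alone, 50 without CON 4, RE 1 and RE 3, 218 with the length trend subtracted, 991 without CON 4 and RE 3, and 13 to 2791 without 1 library (highest without CON 4). The share of changed genes that were higher went from 64.6% to 56.0% for KD against CON, from 17.9% to 41.0% for RE against KD and from 42.7% to 54.0% for RE against CON under median-of-ratios scaling.

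Of the 9 genes, 1 changed in RE against KD, and 0 without a filter, under median-of-ratios scaling, with the compared groups alone or without CON 4, RE 1 and RE 3, 5 without CON 4 and RE 3, and 0 to 2 without 1 library. In RE against CON 6 changed, 3 with the compared groups alone and 5 to 8 without 1 library. Values of RE against KD that turned sign were Hp at -0.075 without RE 3 (and without CON 4 and RE 3), Saa1 at 0.073 under median-of-ratios scaling, 0.16 under quantile normalization and 0.21 without RE 4, and Saa3 at 0.085 under median-of-ratios scaling and 0.055 without RE 4. Without 1 library these ranged from -0.075 to 0.71 for Hp, -0.84 to 0.21 for Saa1 and -0.75 to 0.055 for Saa3. Cp in RE against CON was 0.019 with the length trend subtracted. The cause of these moves was not tested.

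Deviations from the group mean over all genes showed no pairing of KD and RE by replicate number. Same-numbered deviations correlated at -0.55, 0.65, 0.24 and -0.25, and not every library correlated best with its own number. Such correlations cannot show whether same-numbered libraries shared a culture or batch, since they also hold differences that affect whole libraries. With the number as a replicate block, 2021 genes and 2 of the 9 (Ptx3 and Cp) changed in RE against KD. Without the block, the fit of these groups alone gave 49 genes and 0 of the 9. The control columns carry no label numbers, so no block was fitted with CON. Depth is unknown and limits low genes such as Saa1 most.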
